A study of Mus musculus with 8 samples.

Results

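Chemokine ligands are small secreted proteins that bind G protein-coupled receptors and guide leukocytes along a concentration gradient. The genes were taken as every protein-coding gene of the mouse annotation whose symbol consists of Ccl, Cxcl, Cx3cl or Xcl followed by a number and at most 1 letter. There were 37 such genes among the 55385 gene IDs counted. Pf4 and Ppbp, which are CXC chemokine genes with other symbols, fall outside this rule and are given beside their neighbors. Cxcl11 is annotated as a polymorphic pseudogene, was not counted among the 37 and had no read.

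RNA was measured in whole lungs of C57BL/6 mouse fetuses at E18.5. In the fetuses with tracheal occlusion (TO), a suture passed through the wall of the uterus at E16.5 closed the trachea together with 1 carotid artery and 1 jugular vein, and progesterone was given to the dam. Occlusion keeps lung fluid inside the airways and stretches the fetal lung. The labels number 4 control and 4 TO lungs and say nothing of litters or of any operation in controls, so each p-value describes only the spread between these lungs, and the vessel ligation cannot be told apart from the occlusion itself.

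Read pairs counted on genes numbered between 22822261 and 35002061 in 7 libraries and 270078 in TO 1, where 3 read pairs already made 10.3 CPM, the count scaled to a common library size (with TMM factors). Controls 1, 2 and 4 were compared with TO 2, 3 and 4, which are the specimens named in the published comparison. Control 3 was added in a second comparison of 7 libraries, and the values of TO 1 are given apart. TO 1 also stood apart in its makeup, since 12 thymus markers summed to 567 CPM there and to between 2.92 and 24.5 CPM in the other libraries. Lung markers were high in all libraries, with the surfactant protein C gene Sftpc between 4420 and 12800 CPM. Cardiomyocyte markers summed to 663 CPM in control 1 and 415 CPM in control 2 against 2280 to 5200 CPM in the other 6 libraries. In RNA of a whole organ, fewer cells of a type and less RNA per cell cannot be told apart.

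Chemokines are grouped by the spacing of their first cysteines (CXC, CC, CX3C and XC) and by the receptor they bind. CXC ligands with a Glu-Leu-Arg motif bind CXCR2 and draw neutrophils, CCR2 ligands draw monocytes, and CCR3 ligands draw eosinophils. Other chemokines are made constantly and place cells in tissues, as Cxcl12 does through CXCR4. Many genes of the inducible kind lie side by side and are switched on by NF-kappaB, a transcription factor activated by cytokines and microbial products.

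A stretch of 147 kb on chromosome 5 (GRCm38) contained 7 protein-coding genes, and all 7 encode CXC chemokines. In their order on the plus strand these were Cxcl5, Ppbp, Pf4, Cxcl3, Cxcl15, Cxcl1 and Cxcl2. Cxcl15 (chr5:90794534-90803067) begins 4.93 kb past the end of Cxcl3 (chr5:90786103-90789600) and lies 88.2 kb before Cxcl1 (chr5:90891241-90893115). Cxcl2 (chr5:90903871-90905938) follows Cxcl1 at a distance of 10.8 kb. The bases just upstream of 4 of these genes are shown because the genes are neighbors of common origin that stood at very different levels in these lungs. Capitals mark GGGAATTTCCC, the longest run of letters that the windows of Cxcl1, Cxcl2 and Cxcl3 share, which holds a sequence of the NF-kappaB binding type, and TATAAA, the TATA box. The sequences are from RefSeq (GRCm38.p6), plus strand, and stop before the annotated gene, at chr5:90785991-90786100 for Cxcl3, chr5:90794424-90794533 for Cxcl15, chr5:90891135-90891240 for Cxcl1 and chr5:90903789-90903870 for Cxcl2.
Cxcl3: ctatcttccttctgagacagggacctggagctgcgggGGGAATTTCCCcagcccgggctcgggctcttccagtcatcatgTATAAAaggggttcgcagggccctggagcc
Cxcl15: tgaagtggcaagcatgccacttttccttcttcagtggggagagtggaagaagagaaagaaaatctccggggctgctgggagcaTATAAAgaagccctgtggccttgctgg
Cxcl1: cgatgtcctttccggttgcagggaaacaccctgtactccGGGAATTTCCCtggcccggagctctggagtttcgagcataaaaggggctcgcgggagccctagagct
Cxcl2: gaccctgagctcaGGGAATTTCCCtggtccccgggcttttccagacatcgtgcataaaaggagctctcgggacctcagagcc

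Promoter sequences were matched for 27 of the 37 chemokine ligands. In the 250 bases before the RefSeq start, searched on both strands, the run of 11 letters GGGAATTTCCC was present in Cxcl1, Cxcl2 and Cxcl3, which were used to find it, and in no other chemokine ligand matched. It was present in 14 (0.0426%) of the 32851 mouse promoters searched, these 3 included. The next longest run that these 3 windows share has 8 letters. Counted from the start of the annotated gene, its first base lay 75 bases upstream in Cxcl3, 67 in Cxcl1 and 69 in Cxcl2. At any place in the window, TATAAA was present in 10 of the matched ligands, counted as genes, and in 12.4% of all promoters. Its place varied, from 6 bases before the RefSeq start in Cx3cl1 to 224 in Ccl9, so not each match is placed as a TATA box. It began 32 bases upstream of the annotated gene in Cxcl3 and 27 in Cxcl15. The Cxcl15 window held TATAAA and not the shared run. A match of letters describes the window and does not show that a factor binds there.

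Of the 37 genes, 33 had a read in at least 1 of the 8 libraries. Ccl1, Ccl26, Ccl21b and Ccl27b had none. Read pairs aligned to several places were not counted, so a lack of reads says little for Ccl21b and Ccl27b, which have near-identical copies. Each gene with at least 5 reads in 3 or more of the 6 libraries was tested, which kept 26 chemokine ligands. A further 7 genes, Cxcl2, Ccl8, Ccl22, Ccl19, Cxcl9, Ccl17 and Xcl1, had reads but were not tested. Of the 26 genes tested, 16 had at least 5 reads in every one of the 6 libraries and 10 had fewer in at least 1 library. TO 1 had a read for 14 of the 37 genes and 177 read pairs on them in all.

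Per kilobase of exon, Cxcl15 stood far above every other chemokine ligand, at 320 ± 179 CPM per kb (SD, n = 7 libraries). Ccl11 followed at 22.6 ± 6.35 CPM per kb, then Cxcl12 at 14.4 ± 1.43, Ccl21a at 12.8 ± 3.80 and Cxcl14 at 8.98 ± 1.62 CPM per kb. The range of Cxcl15, from 153 to 662 CPM per kb, did not meet that of Ccl11, from 15.8 to 30.5 CPM per kb. Ccl11 and Cxcl12 overlapped in their ranges, as did Cxcl12 and Ccl21a, and Ccl21a and Cxcl14, so their order is not resolved beyond the spread between libraries. Ccl27a was next at 3.56 ± 0.638 CPM per kb, and its highest library reached 4.25 CPM per kb, under the lowest of Cxcl14 at 6.95 CPM per kb. The remaining genes were at 2.84 CPM per kb or below on average. Exon length is the union of all annotated transcripts, which lowers the value of a gene with many long isoforms such as Cxcl12.

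Cxcl15 held between 57.2% and 85.9% of the summed CPM of all chemokine ligands in the 7 deeply sequenced libraries. Without Cxcl15, the summed level of the other ligands lay between 203 and 243 CPM in all 7 of these libraries, and control and TO lungs overlapped. The total chemokine ligand mRNA of a lung thus moved with a single gene.

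**Figure D1:**
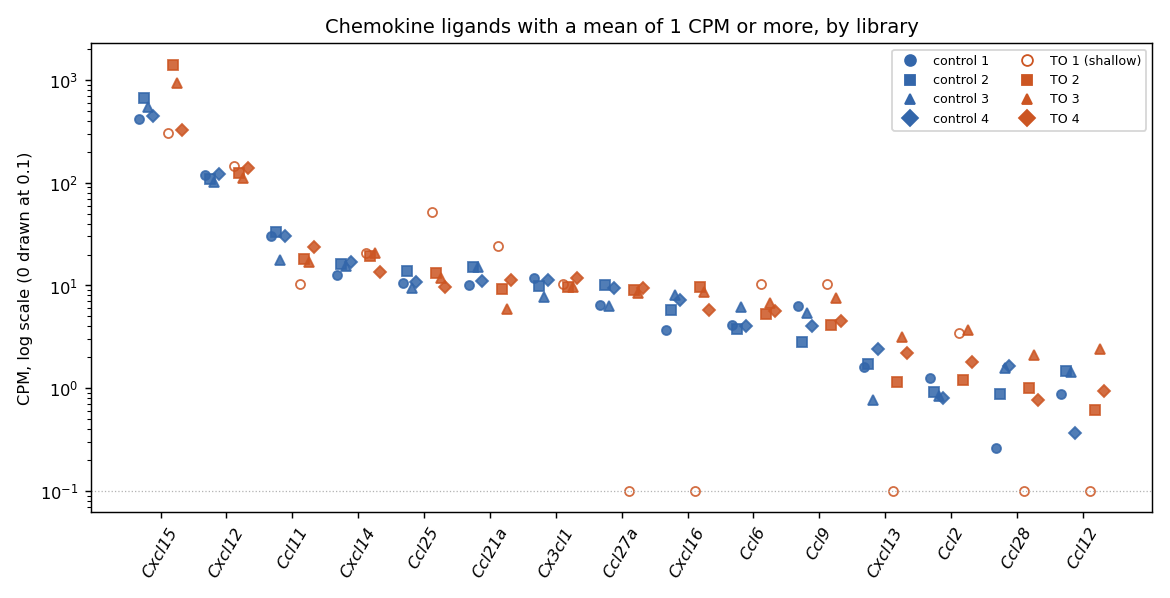
CPM of the 15 chemokine ligands with a mean of 1 CPM or more, on a log axis, with 1 point per library (blue, control; orange, TO; the open circle is the shallow TO 1, and 0 is drawn at 0.1). Cxcl15 lay between 302 and 1410 CPM in all 8 libraries, and for each of the 15 genes the colors overlap.

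No chemokine ligand passed the test at an adjusted p under 0.1 (quasi-likelihood test of edgeR, Benjamini-Hochberg adjustment across every gene tested), where 0 of all 21859 genes passed (0%). By DESeq2 0 of the 20 ligands with an adjusted p passed, beside 0.239% of all genes. At an unadjusted p under 0.05, edgeR gave 1 ligand that was higher in TO lung (Cxcl5), beside 3.07% of all genes, and 1 that was lower (Ccl11), beside 2.07%. All 3 TO lungs lay above all 3 control lungs for 4 of the 26 ligands tested (Ccl6, Ccl7, Cxcl3 and Cxcl5), beside 5.06% of all genes. Cxcl5 met the read minimum through its TO lungs alone, and Cxcl3 had 6, 0 and 3 reads in controls 1, 2 and 4. The count of 4 is therefore a description. With 5 reads required in every library it was 2 of 16, and the share of all genes was not counted for that filter. All 3 TO lungs lay below for 1 ligand (Ccl11), beside 5.82% of all genes. With control 3 added, TO lungs lay above for 3 ligands (Ccl7, Cxcl3 and Cxcl5), beside 2.26% of all genes, and below for 0, beside 1.68%.

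The log2 fold change was positive for 21 of the 26 ligands tested, with a median of 0.53, while 49.3% of all genes tested were positive and their median was 0.00. With the shared digits of specimen names as a block, 16 of the 26 ligands were positive and the median was 0.17. With the replicate number as a block, 15 were positive and the median was 0.18. Cxcl5 passed the read minimum only through its TO lungs. Among the 16 ligands with 5 reads in every one of the 6 libraries the median was 0.26 and 12 were positive. A single lung weighed on the median of the 26 genes. Without TO 3 it was 0.05 over 22 ligands tested, of which 12 were positive. TO 3 had the highest value of the 7 libraries for 7 of the 15 ligands with a mean of 1 CPM or more, and control 2 for 4 of them.

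**Figure D2:**
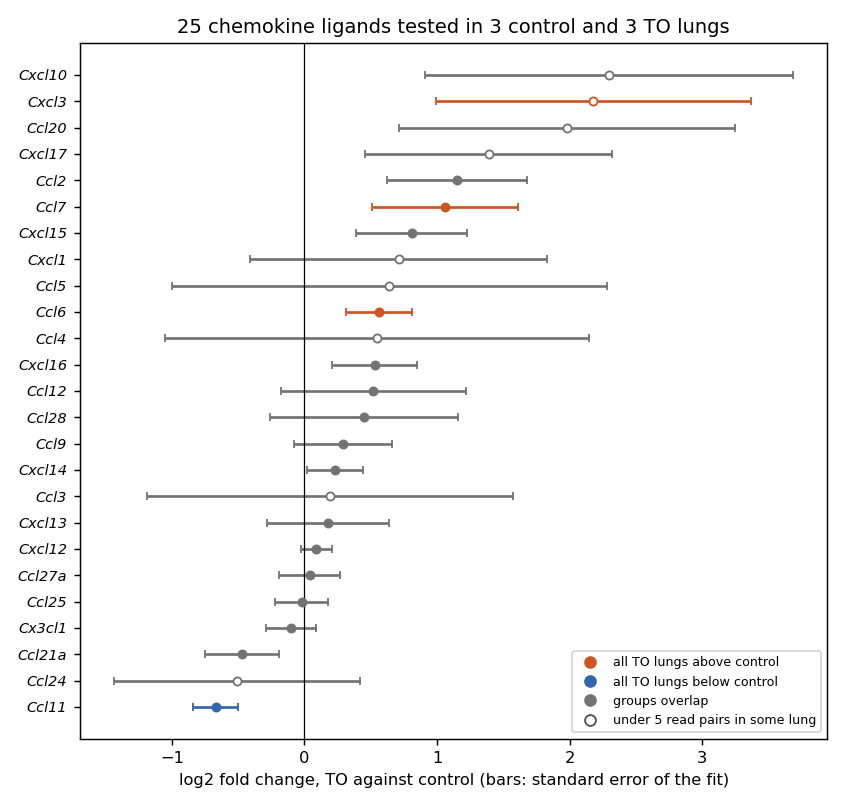
Log2 fold change of TO against control lung, with the standard error of the edgeR fit, for 25 of the 26 chemokine ligands tested in 3 control and 3 TO lungs. Cxcl5, with no read in controls, is left out. Open points had under 5 read pairs in some lung. Ccl11 lies lowest at -0.67, and Cxcl3, Ccl7 and Ccl6 are the genes drawn whose TO lungs all lay above controls.

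The CXCR2 ligands Cxcl1, Cxcl2, Cxcl3 and Cxcl5 were scarce in every control lung, and each had its highest value in a TO lung, though not in the same one. These genes were below 1 CPM on average and were singled out after their values were seen. Cxcl5 had 0 reads in all 4 controls and 26, 12 and 14 read pairs in TO 2, TO 3 and TO 4, that is 0.752, 0.496 and 0.398 CPM. Set against a floor of 3 counts over the control group, Cxcl5 was at least 14.4-fold higher in TO lung with 3 controls and at least 19.9-fold higher with 4. Its adjusted p was 0.907 by edgeR.

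Cxcl3 had 0.263, 0.00 and 0.121 CPM in controls 1, 2 and 4 and 0.867, 0.496 and 0.370 CPM in TO 2, TO 3 and TO 4. Control 3, at 0.302 CPM, also lay below all 3 TO lungs. Its log2 fold change was 2.18 ± 1.19 (SE, adjusted p = 0.907 by edgeR). Cxcl1 reached 1.57 CPM in TO 3 and lay at 0.173 CPM in TO 2 and 0.0853 CPM in TO 4, so that TO 2 and TO 4 were both below controls 1, 2 and 4, which had 0.219, 0.455 and 0.404 CPM. Control 3 had no read of Cxcl1, so TO 2 and TO 4 lay within the range of all 4 controls. Cxcl2 had 15 read pairs in TO 3 and 0 in each of the other 7 libraries. Thus Cxcl1 and Cxcl2 were high in TO 3 alone, while Cxcl3 and Cxcl5 were highest in TO 2.

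Of 24044 genes with at least 3 read pairs in 3 or more of the 7 libraries, 27 (0.112%) had no read in the 4 controls and at least 3 in each of the 3 TO lungs, and 18 (0.0749%) had the opposite pattern. Cxcl5 and Ccl8, described further on, are among the 27. Both were singled out for this pattern and entered the 24044 genes only through TO lungs, so nothing is read from their number.

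The 4 CXCR2 ligands described above summed to 0.302 to 0.526 CPM in the 4 controls. Their sums in TO 2, TO 3 and TO 4 were 1.79, 3.18 and 0.853 CPM. Cxcl5, which was singled out for its lack of reads in controls, gave 0.752, 0.496 and 0.398 CPM of these. Without Cxcl5 the sum of TO 4 would lie among those of controls. In TO 3, Cxcl1 alone gave 1.57 CPM. The separation of the sums is therefore only a description. The sum leaves out the CXC gene Ppbp of the same stretch, which fell outside the symbol rule. Ppbp overlapped between the groups, at 0.26 to 1.58 CPM in the 4 controls and 0.289 to 2.08 CPM in the 3 TO lungs. Cxcr2, the receptor of these ligands and a gene of neutrophils, was at 0.0438, 0.455 and 0.364 CPM in controls 1, 2 and 4. In TO 2, TO 3 and TO 4 it was at 0.636, 3.55 and 2.79 CPM. Control 3 overlapped at 1.21 CPM. Its log2 fold change was 2.96 ± 0.85 (SE, adjusted p = 0.907 by edgeR). Neutrophil markers had a positive log2 fold change for 9 of 9 tested, 5 were called by DESeq2 (0.239% of all genes were) and 0 by edgeR, and their sum was 28.1 to 61.8 CPM in the 4 controls and 74.0, 131 and 191 CPM in TO 2, TO 3 and TO 4. The neutrophil granule genes Elane and Mpo, which were not tested among the 6 libraries, went the other way in pooled reads. They had 31 and 56 read pairs over the 4 controls and 3 each over the 3 TO lungs. Not every control held them. Elane was at 1.09, 0, 0 and 0.243 CPM and Mpo at 1.27, 0, 0.738 and 0.202 CPM in controls 1 to 4. Ly6g had no read. The part of neutrophil number in the ligand levels was not tested.

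Between Cxcl5 and Cxcl3 lies Pf4, platelet factor 4, which is expressed by megakaryocytes and by some macrophages. Pf4 was at 5.08, 7.45 and 4.89 CPM in controls 1, 2 and 4 and at 10.1, 14.7 and 9.30 CPM in TO 2, TO 3 and TO 4. Control 3 had 5.64 CPM, so all 3 TO lungs lay above all 4 controls, with a log2 fold change of 0.96 ± 0.27 (SE, adjusted p = 0.907 by edgeR). Its neighbor Ppbp, which encodes another platelet chemokine, overlapped between the groups with a log2 fold change of 0.14 ± 0.88, and 5 platelet and megakaryocyte markers summed to 8.69 to 16.5 CPM in the 4 controls and 14.7 to 16.3 CPM in the 3 TO lungs. Macrophage markers had a positive log2 fold change for 12 of 12 tested, 9 of them with an unadjusted p under 0.05 (3.07% of all genes were higher at that threshold), and 0 passed the adjusted threshold.

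**Figure D3:**
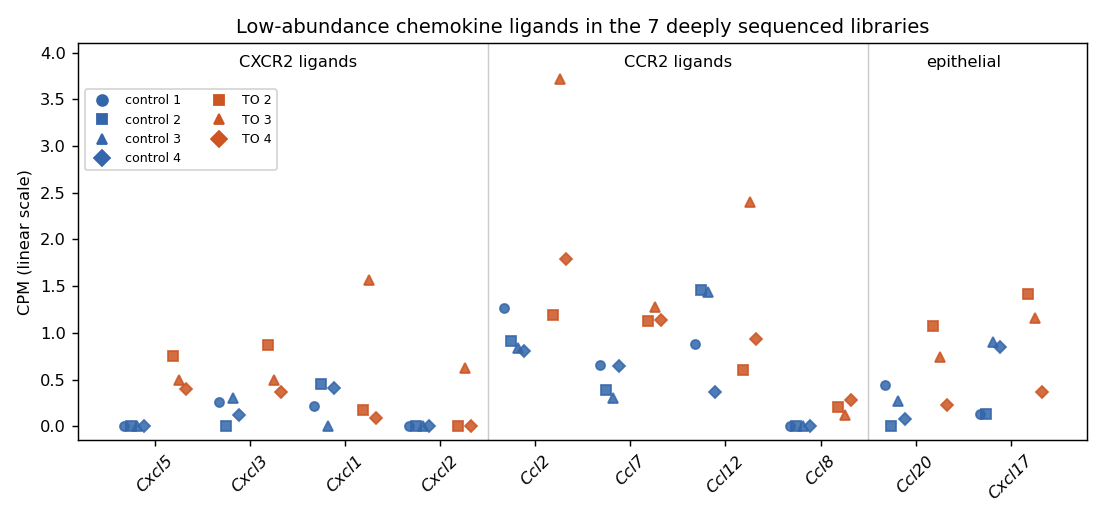
CPM on a linear axis of low-abundance chemokine ligands in the 7 deeply sequenced libraries, grouped as CXCR2 ligands, CCR2 ligands and epithelial chemokines. Cxcl5 and Ccl8 lie at 0 in all 4 controls and above it in all 3 TO lungs, while Cxcl1, Cxcl2, Ccl2 and Ccl12 are highest in TO 3.

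Cxcl15 (lungkine) is a CXC chemokine made mainly by lung epithelium. It was at 419, 661 and 448 CPM in controls 1, 2 and 4 and at 1410, 945 and 325 CPM in TO 2, TO 3 and TO 4. In control 3 it was at 552 CPM, and the 88 read pairs of TO 1 made 302 CPM. TO lung therefore held both the highest and the lowest of the deeply sequenced libraries, and the groups overlapped. On the log2 scale the fold change was 0.81 ± 0.42 (SE, adjusted p = 0.907 by edgeR). Single lungs moved this value in both directions, since it was 1.21 with an adjusted p of 0.0937 without TO 4 and 0.31 without TO 2. With the shared digits of specimen names as a block it was 0.26.

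Cxcl15 went with the markers of alveolar type 2 (AT2) cells from library to library. The summed level of 8 AT2 markers was highest in TO 2 at 20200 CPM, then in TO 3 at 16100 CPM and control 2 at 15900 CPM, and lowest of the 7 in TO 4 at 8780 CPM. Cxcl15 had the same first 4 libraries in the same order (TO 2, TO 3, control 2 and control 3) and the same lowest library. Per 100 CPM of AT2 markers, Cxcl15 was between 3.78 and 4.66 CPM in the 4 controls, 6.97 CPM in TO 2, 5.86 CPM in TO 3 and 3.70 CPM in TO 4. Relative to this sum, TO 2 and TO 3 thus still lay above every control, and TO 4 just below. Sftpc made up most of the sum in every library, for example 12800 of the 20200 CPM of TO 2. The order depended on the marker. From control 1 to TO 3, Cxcl15 rose from 419 to 945 CPM. Over the same lungs Sftpd rose more steeply, from 44.9 to 322 CPM, and Slc34a2 slightly more steeply, from 981 to 2260 CPM. Relative to either of these markers alone, TO 3 lay below control 1. Other markers were not compared singly. Club cell markers summed to 1800 and 1200 CPM in TO 2 and TO 3 and to 666 CPM in TO 4, against 601 to 1010 CPM in controls. The part of epithelial cell number in the level of Cxcl15 was not tested.

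**Figure D4:**
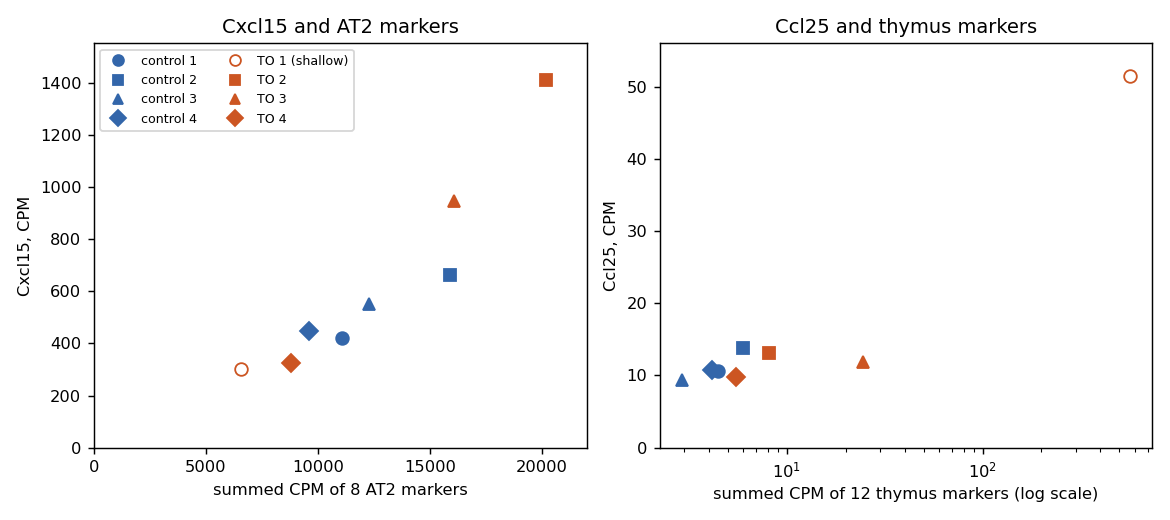
Left, Cxcl15 against the summed CPM of 8 AT2 markers, 1 point per library on linear axes. Right, Ccl25 against the summed CPM of 12 thymus markers on a log axis. Cxcl15 and AT2 markers are both highest in TO 2 (1410 and 20200 CPM), and Ccl25 and thymus markers are both highest in TO 1 (51.5 and 567 CPM).

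Other chemokines of epithelia were less abundant and overlapped between the groups. Cxcl14 was at 12.7, 16.1 and 16.8 CPM in controls 1, 2 and 4 and at 19.3, 20.9 and 13.4 CPM in TO 2, TO 3 and TO 4. Control 3 was at 15.6 CPM and 6 read pairs made 20.6 CPM in TO 1 (log2 fold change 0.23 ± 0.21, adjusted p = 0.930 by edgeR). Ccl28, a mucosal ligand of CCR10, was at 0.263, 0.878 and 1.66 CPM in controls 1, 2 and 4, at 1.58 CPM in control 3, and at 1.01, 2.11 and 0.768 CPM in TO 2, TO 3 and TO 4, with no read in TO 1. Both genes thus spread as widely within a group as between groups. Ccl20, the CCR6 ligand of airway epithelium, ran from 0.00 to 0.438 CPM in the 4 controls and was at 1.07, 0.744 and 0.227 CPM in TO 2, TO 3 and TO 4. Cxcl17, another mucosal chemokine, ran from 0.130 to 0.906 CPM in controls and was at 1.42, 1.16 and 0.370 CPM in the same TO lungs. In Ccl20 and Cxcl17 as in Cxcl15, TO 2 and TO 3 lay above all 4 controls and TO 4 lay among them or below. The log2 fold changes were 1.98 ± 1.27 for Ccl20 and 1.39 ± 0.93 for Cxcl17 (SE), and neither passed. Without control 1 that of Ccl20 was 4.03, and without control 4 that of Cxcl17 was 2.87.

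The CCR2 ligands Ccl2, Ccl7, Ccl8 and Ccl12 lie together on chromosome 11 with Ccl11, in a stretch of 81.2 kb with 6 protein-coding genes. Ccl2, also called MCP-1, was at 1.27, 0.911 and 0.809 CPM in controls 1, 2 and 4 and at 1.19, 3.72 and 1.79 CPM in TO 2, TO 3 and TO 4. Control 3 had 0.839 CPM and the single read of TO 1 made 3.43 CPM. Only TO 2 lay within the range of controls. The log2 fold change of Ccl2 was 1.15 ± 0.53 (SE, adjusted p = 0.907 by edgeR), and with control 3 added it was 1.21 ± 0.49 (adjusted p = 1). Without TO 3 it was 0.59, and with the shared digits as a block 0.62. With control 3 added, Ccl2 and Ccl7 joined Cxcl5 as the 3 ligands that were higher at an unadjusted p under 0.05. Ccl7 was at the edge of that threshold (unadjusted p = 0.0498 by edgeR). The share of all genes was not counted there, so the count of 3 is a description.

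Ccl7, another monocyte attractant, had 15, 12 and 16 read pairs in controls 1, 2 and 4 and 39, 31 and 40 in TO 2, TO 3 and TO 4. These counts make 0.657, 0.390 and 0.647 CPM against 1.13, 1.28 and 1.14 CPM. Control 3 had 0.302 CPM, so the groups did not overlap, and the 3 TO lungs differed little among themselves. Its log2 fold change was 1.06 ± 0.55 (SE, adjusted p = 0.907 by edgeR), and with control 3 added 1.24 ± 0.56 (adjusted p = 1). Ccl7 was below 1 CPM on average and was singled out after its values were seen, as was Ccl8.

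Ccl8 had no read in the 4 controls and 7, 3 and 10 read pairs in TO 2, TO 3 and TO 4, at least 5.56-fold higher than a floor of 3 counts over 3 controls. It did not reach the read minimum and was not tested. Ccl12 was at 0.876, 1.46 and 0.364 CPM in controls 1, 2 and 4, at 1.44 CPM in control 3, and at 0.607, 2.40 and 0.938 CPM in TO 2, TO 3 and TO 4, with no read in TO 1. Ccl12 therefore overlapped widely between the groups (log2 fold change 0.52 ± 0.70). Summed over the 4 CCR2 ligands, controls lay between 1.82 and 2.80 CPM and TO 2, TO 3 and TO 4 at 3.12, 7.52 and 4.15 CPM. The receptor Ccr2 was at 13.1, 13.4 and 6.55 CPM in controls 1, 2 and 4 and at 15.1, 13.1 and 15.6 CPM in TO 2, TO 3 and TO 4, and the groups overlapped.

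Ccl11 (eotaxin), a CCR3 ligand and attractant of eosinophils, lies 10.3 kb past Ccl7 and went the other way. It was at 30.3, 33.0 and 30.6 CPM in controls 1, 2 and 4 and at 18.1, 17.1 and 23.9 CPM in TO 2, TO 3 and TO 4. These groups did not overlap, and the SD of these 3 controls was small beside the difference. Control 3, however, was at 17.9 CPM, within the range of TO lungs, and TO 1 had 10.3 CPM from 3 read pairs. The log2 fold change was -0.67 ± 0.17 (SE, adjusted p = 0.907 by edgeR; adjusted p = 0.149 by DESeq2). With control 3 added it was -0.50 ± 0.23 (adjusted p = 1), and without TO 4 it was -0.83 with an adjusted p of 0.0917. Among specimens that share digits in their names, Ccl11 was lower in TO lung in all 3 pairings, by 0.86 (TO 2 against control 2), 0.06 (TO 3 against control 3) and 0.35 (TO 4 against the mean of controls 1 and 4) on the log2 scale.

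The other CCR3 ligand with reads, Ccl24, ran from 0.175 to 0.911 CPM in controls and from 0.202 to 0.579 CPM in the 3 TO lungs. Ccr3, the receptor of eosinophils, had 0.364 CPM or less in every library and no read in any TO lung. Ccr3 also had no read in controls 1 and 3, and it did not reach the read minimum.

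Another group of CC ligands comprises Ccl3, Ccl4 and Ccl5, made by activated leukocytes, and Ccl6 and Ccl9, which mouse macrophages and other myeloid cells make without stimulation. Ccl6 was at 4.11, 3.77 and 4 CPM in controls 1, 2 and 4 and at 5.23, 6.69 and 5.69 CPM in TO 2, TO 3 and TO 4. These 6 lungs did not overlap (log2 fold change 0.56 ± 0.25, adjusted p = 0.907 by edgeR). Control 3 was at 6.21 CPM, above TO 2 and TO 4, and with it the log2 fold change was 0.37 ± 0.27. The separation of Ccl6 thus rested on which controls were compared.

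Ccl9 was at 6.26, 2.83 and 4.04 CPM in controls 1, 2 and 4, at 5.40 CPM in control 3, and at 4.16, 7.48 and 4.49 CPM in TO 2, TO 3 and TO 4. TO 1 had 10.3 CPM for both Ccl6 and Ccl9, each from 3 read pairs. Ccl3, Ccl4 and Ccl5 did not exceed 0.839 CPM in any of the 7 deeply sequenced libraries and their groups overlapped. The ligands of leukocytes were thus present mainly as Ccl6 and Ccl9.

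Ccr1, a receptor of several of these ligands, had higher values in TO lung. It was at 5.78, 4.72 and 3.56 CPM in controls 1, 2 and 4, at 7.08 CPM in control 3, and at 7.23, 10.2 and 8.61 CPM in TO 2, TO 3 and TO 4, without overlap among all 7. Its log2 fold change was 0.89 ± 0.27 (SE, adjusted p = 0.907 by edgeR).

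Of 18 chemokine receptor genes, 11 were tested, 4 had an unadjusted p under 0.05 and were higher in TO lung (among them Cxcr2, Cx3cr1 and Ccr1), 0 were lower at that threshold, and none passed the adjusted threshold. Of all genes, 3.07% were higher at that threshold. The 3 receptors named are genes of myeloid cells, and the macrophage markers summed to 260 to 385 CPM in the 4 controls and to 488, 548 and 378 CPM in TO 2, TO 3 and TO 4. The part of myeloid cell number in the receptor levels was not tested. Of 5 atypical receptors, which bind chemokines without signaling through G proteins, 5 were tested and 0 had an unadjusted p under 0.05.

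Chemokines made as membrane proteins, Cx3cl1 and Cxcl16, can hold leukocytes on the cell surface or be shed. Cx3cl1 was at 11.8, 9.98 and 11.4 CPM in controls 1, 2 and 4, at 7.69 CPM in control 3, and at 9.63, 9.59 and 11.8 CPM in TO 2, TO 3 and TO 4, with 10.3 CPM in TO 1. Its level thus hardly moved between the groups (log2 fold change -0.10 ± 0.19). Its receptor Cx3cr1, a gene of monocytes and macrophages, was at 17.6, 13.2 and 14.2 CPM in controls 1, 2 and 4, at 10.3 CPM in control 3, and at 25.6, 21.7 and 22.5 CPM in TO 2, TO 3 and TO 4. All 3 TO lungs lay above all 4 controls for Cx3cr1, with a log2 fold change of 0.63 ± 0.17 (SE, adjusted p = 0.907 by edgeR).

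Cxcl16 was at 3.68, 5.72 and 7.24 CPM in controls 1, 2 and 4, at 8.16 CPM in control 3, and at 9.74, 8.68 and 5.74 CPM in TO 2, TO 3 and TO 4, with no read in TO 1. The groups overlapped (log2 fold change 0.53 ± 0.32, adjusted p = 0.907 by edgeR). Of its exonic bases, 18.3% are shared with Zmynd15 on the opposite strand. The counts used here join both strands and leave out read pairs that overlap more than 1 gene, so its level may be understated.

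Cxcl12, the CXCR4 ligand of stromal cells, was the steadiest of the abundant ligands. It was at 120, 109 and 121 CPM in controls 1, 2 and 4, at 102 CPM in control 3, and at 124, 112 and 138 CPM in TO 2, TO 3 and TO 4, with 144 CPM in TO 1. The groups overlapped, with a log2 fold change of 0.09 ± 0.12 (SE, adjusted p = 0.955 by edgeR). Its receptors overlapped too, with Cxcr4 between 31.5 and 47.6 CPM in controls and 32.5 and 57.4 CPM in the 3 TO lungs, and the scavenging receptor Ackr3 between 31.7 and 41.5 CPM and 29.1 and 46.2 CPM.

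Chemokines of lymphoid tissue gave mixed values. Ccl21a, the CCR7 ligand of lymphatic endothelium, was at 10.2, 15.3 and 11.1 CPM in controls 1, 2 and 4, at 15.2 CPM in control 3, and at 9.22, 5.95 and 11.2 CPM in TO 2, TO 3 and TO 4, with 24.0 CPM in TO 1 from 7 read pairs. Its log2 fold change was -0.47 ± 0.28 (SE, adjusted p = 0.907 by edgeR), while the lymphatic endothelial markers, a list of 6 that includes Ccl21a, had a median log2 fold change of 0.44 and 5 positive values. Ccl21a has near-identical copies in the genome, and read pairs that aligned to several places were not counted, so its level is uncertain. The same holds for Ccl27a, a ligand of CCR10 in skin, which was at 6.44, 10.1 and 9.54 CPM in controls 1, 2 and 4, at 6.31 CPM in control 3, and at 9.02, 8.47 and 9.38 CPM in TO 2, TO 3 and TO 4.

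Cxcl13, which places B cells through CXCR5, was at 1.62, 1.72 and 2.43 CPM in controls 1, 2 and 4, at 0.772 CPM in control 3, and at 1.16, 3.18 and 2.22 CPM in TO 2, TO 3 and TO 4, with overlap between the groups. Ccl25, the CCR9 ligand of thymic epithelium and small intestine, was at 10.6, 13.8 and 10.7 CPM in controls 1, 2 and 4, at 9.43 CPM in control 3, and at 13.1, 11.9 and 9.75 CPM in TO 2, TO 3 and TO 4 (log2 fold change -0.02 ± 0.20). These 7 libraries lay close together. In TO 1 Ccl25 was at 51.5 CPM from 15 read pairs. Ccr9 was at 6.87 CPM in TO 1, which is the value of 2 read pairs there, against at most 2.81 CPM elsewhere. The atypical receptor Ackr4, which binds Ccl25 and Ccl21, was at 17.2 CPM in TO 1, against at most 2.36 CPM elsewhere. Both values rest on few reads, since 3 read pairs made 10.3 CPM in TO 1. The thymus markers of TO 1 included Rag1 at 161 CPM and Prss16, a gene of thymic epithelium, at 130 CPM, against at most 9.46 and 2.52 CPM in the other libraries. The part of thymic tissue in the Ccl25 value of TO 1 was not tested.

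The CXCR3 ligands, which interferon induces, were near the limit of detection. Cxcl10 was at 0.175, 0.163 and 0.00 CPM in controls 1, 2 and 4, at 1.17 CPM in control 3, and at 0.0578, 1.32 and 0.370 CPM in TO 2, TO 3 and TO 4. In TO 1, 2 read pairs made 6.87 CPM. Among the 7 deeply sequenced libraries the highest values came from control 3 and TO 3. Cxcl9 had at most 2 read pairs in any library. Xcl1 had 1 read pair in control 1, and Ccl17, Ccl19 and Ccl22 had between 0 and 7 read pairs per library.

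Cytokines and NF-kappaB genes that stand upstream or beside the inducible ligands were given from lists. Of 14 cytokine genes 7 were tested, and 1 had an unadjusted p under 0.05. This was Il33, an alarmin of AT2 and stromal cells, at 18.3, 15.7 and 22.9 CPM in controls 1, 2 and 4 and 37.1, 49.6 and 15.3 CPM in TO 2, TO 3 and TO 4, so that TO 4 lay lowest. Il1b was at most 0.434 CPM, Tnf at most 0.306 CPM and Il6 at most 0.302 CPM, and Il17a and Il17f had no read. Of 16 NF-kappaB target and feedback genes all 16 were tested, 4 had an unadjusted p under 0.05 and were higher in TO lung (Birc3, Tnfaip3, Nfkbia and Sod2), 0 were lower at that threshold, beside 3.07% and 2.07% of all genes, 0 passed the adjusted threshold, and the median log2 fold change was 0.41. Nfkbia, the inhibitor of NF-kappaB that the factor itself induces, was at 67.8, 80.0 and 64.0 CPM in controls 1, 2 and 4 and at 104, 113 and 77.6 CPM in TO 2, TO 3 and TO 4. Control 3 was at 111 CPM, among the TO lungs, and with it the log2 fold change of Nfkbia went from 0.48 to 0.28. Birc3 and Tnfaip3 in control 3, at 48.9 and 23.3 CPM, also lay among the TO lungs. Sod2 in control 3, at 95.6 CPM, lay above TO 2, TO 3 and TO 4 (80.5, 90.1 and 91.2 CPM). Summed, the 16 genes overlapped, at 720 to 1060 CPM in the 4 controls and 711 to 1060 CPM in the 3 TO lungs.

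Within pairings of specimens that share digits in their names, 8 of the 15 ligands with a mean of 1 CPM or more were higher in TO 2 than in control 2, 13 were higher in TO 3 than in control 3, and 10 were higher in TO 4 than in the mean of controls 1 and 4. In all 3 pairings 5 ligands were higher in TO lung (Cxcl12, Cxcl16, Ccl6, Ccl2 and Ccl28) and 1 was lower (Ccl11). The shares of all genes in these pairings were not counted, so the counts only describe the ligands. What the shared digits stand for is not given in the sources used here.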

How the data were processed

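RNA of whole lungs was barcoded with NexteraXT oligos and sequenced as read pairs by the authors, who aligned the reads to GRCm38 with STAR. What they deposited are raw gene counts from STAR, not normalized, and the column that joins both strands was used. The submitters' processing notes name mm10, STAR and DESeq2. Of the 55385 gene IDs, 55144 matched GENCODE M21, which gave symbols, coordinates and exon lengths. Columns of other samples numbered 0. The reads carry no molecular identifiers, so floors cover counting error only.

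Counts were analyzed with edgeR 4.0.16 (glmQLFit and glmQLFTest, TMM), limma 3.58.1 and DESeq2 1.42.0 in R 4.3.3, and figures with matplotlib 3.10.9 in Python 3.11.15. A gene was tested where 3 or more of the 6 libraries had at least 5 reads, with the study's threshold of 0.1 for the adjusted p. CPM used TMM factors of all 8 libraries. Ligands with a mean of 1 CPM or more over 7 libraries, or called by a tool, were given in every library. From other lists, genes were named at a mean of 5 CPM or more, or when called by a tool, and receptors, cytokines and thymus or neutrophil markers below that level were chosen after their values were seen. The ligands and lists were chosen with earlier results of these data known. In data simulated for the 6 libraries, 199 of 200 genes with a log2 fold change of 2 were called among 21859 genes, with 21 false calls. The simulated spread between lungs was the same for every gene, and scarce genes were not among those changed. It therefore checks the procedure and does not give the power of the test in these lungs.

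Alternatives were the addition of control 3 or of all libraries, DESeq2 and limma-voom, other scaling, other filters, counts of 1 strand, each library left out, and blocks by replicate number or specimen digits. Replicates were compared by correlation of their deviations, and no libraries were merged. The values of 1 receptor gene are not reported here.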

Additional observations from a re-analysis of the deposited data

Results flagged for a closer look

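Among the 15 ligands with a mean of 1 CPM or more, 30 groups of 4 lungs were examined for a lung that stood far from the other 3, and 3 were found. Chance gives about 1 in 20 groups. Ccl25 was at 51.5 CPM in TO 1 against 9.75 to 13.1 CPM in the other TO lungs, from 15 read pairs in the shallow library that also held 567 CPM of thymus markers. Ccl27a had 0 CPM in TO 1 against 8.47 to 9.38 CPM in the other TO lungs. In TO 1 a gene with 3 read pairs stood at 10.3 CPM. Ccl6 was at 6.21 CPM in control 3, from 185 read pairs, against 3.77 to 4.11 CPM in the other controls.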

How the results depend on the processing

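The count of ligands called at an adjusted p under 0.1 was 0 in each alternative except without TO 4, where it was 2 (Cxcl15 and Ccl11) and 144 of all 20801 genes were called, so leaving out each library in turn gave 0 to 2. Ligands that were higher at an unadjusted p under 0.05 numbered 1 in the main comparison, 3 with control 3 added, by DESeq2 or without a filter, and 2 with all 8 libraries, RLE or upper quartile factors, 5 reads in every library or counts of 1 strand, and 0 (without TO 3) to 2 when each library was left out. Lower ligands numbered 1, 0 with control 3 added, and 1 to 2 when each library was left out. For these higher and lower ligands the share of all genes was counted only in the main comparison (3.07% and 2.07%). Their counts in the alternatives therefore only describe the ligands. Ligands with TO above control without overlap numbered 4, 2 with 5 reads in every library, and 4 to 8 when each library was left out (7 without control 1 or control 4, 8 without TO 4). Those below numbered 1, and 0 with control 3 added, with all 8 libraries or with the specimen code block of 7 libraries. They numbered 1 to 3 when each library was left out (2 without control 1 or TO 3, 3 without TO 4). With a lung fewer, groups separate more easily for any gene, and the share of all genes was not counted there. The median log2 fold change of the ligands tested was 0.53, and 0.35 with control 3 added, 0.32 with all 8 libraries, 0.32 by limma-voom, 0.27 with 5 reads in every library, 0.26 with counts of 1 strand, 0.17 and 0.20 with the specimen code block of 6 and 7 libraries, and 0.05 (without TO 3) to 0.51 when each library was left out. The 4 receptors at an unadjusted p under 0.05 numbered 3 to 5 over the alternatives.

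Directions of 7 named ligands with small changes turned. Ccl25 became 0.06 with control 3 added, 0.45 with all 8 libraries, 0.12 with counts of 1 strand and 0.03 with the specimen code block of 7 libraries, and ran from -0.11 (without TO 2) to 0.12 (without control 2; 0.10 without TO 4) when each library was left out. Cx3cl1 became 0.02 with control 3 added and with all 8 libraries and 0.09 with the specimen code block of 7 libraries. Ccl27a ran from -0.13 (without control 1) to 0.17. Cxcl13 became -0.32 with counts of 1 strand, -0.15 with the specimen code block and -0.17 (without TO 3) to 0.48 when each library was left out. Ccl28 became -0.09 with the specimen code block and -0.06 (without TO 3) to 1.15. Ccl12 became -0.13 with counts of 1 strand, -0.16 with the specimen code block and -0.21 (without TO 3) to 1.07. The causes were not tested.

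The labels do not say that replicate numbers pair the lungs, and they were not treated as pairs in the main comparison. The correlation of deviations was 0.052, 0.13, 0.157 and 0.071 for numbers 1 to 4, positive for each and over 0.1 for 2 of them. TO lungs 1, 2 and 3 but not TO 4 correlated best with the control of their own number, which is a hint of pairing in the data. Lungs of the same number also share digits in their specimen names. With the replicate block in 6 libraries, 219 of 21859 genes and 0 ligands were called, the median log2 fold change of ligands was 0.18, Cxcl15 was at 0.32 and Ccl2 at 0.76, and Cx3cr1 was called (0.82, adjusted p = 0.0959 by edgeR). Under this block Cxcl14 became -0.03, Cx3cl1 0.00, Ccl27a -0.09, Cxcl13 -0.34, Ccl28 -0.45 and Ccl12 -0.01. With the replicate block in all 8 libraries, 3 genes and 0 ligands were called, 2 ligands were higher at an unadjusted p under 0.05, 0 lay below without overlap, the median was 0.22, and Ccl25 became 0.41, Cx3cl1 0.08, Ccl27a -0.04 and Ccl28 -0.17. DESeq2 called 44 genes and 0 ligands. Genes with under 5 read pairs in a library, which include Cxcl1, Cxcl3, Cxcl5, Cxcl10 and Ccl20, are limited by depth.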
